A study of Canis lupus familiaris with 30 samples.

Results

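The 24 tumors described here are canine follicular thyroid carcinomas (FTC), taken from a series of 30 spontaneous thyroid carcinomas of pet dogs. They were chosen by tumor name, as all tumors other than TC1020, TC1473, TC1601, TC1936, TC2289 and TC1088. The study also grouped TC1088 as follicular but left it out of its differential expression as an outlier, so the 24 are not all of its follicular carcinomas. The labels call every sample tumor tissue of the thyroid gland and give no genotype, age or treatment, so the follicular class is that of the study, which used histopathology, calcitonin staining and RNA expression. The levels of calcitonin and thyroid genes in the 24 tumors are therefore not independent of the choice. The tumors were treated as 1 group. Each library held total RNA, depleted of ribosomal RNA, from a frozen piece of the primary tumor of 1 dog, and a piece holds carcinoma cells together with vessels, connective tissue and immune cells. In such bulk samples, fewer cells of a type and less RNA per cell cannot be told apart.

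Thyroid follicular cells build thyroglobulin (*TG*), secrete it into the follicle and iodinate it there. The sodium-iodide symporter *SLC5A5* brings iodide into the cell, *DUOX2* makes the peroxide that iodination needs, and *PAX8* is a transcription factor that keeps these genes active. Carcinomas of this cell can keep or lose parts of this program, and can turn on genes of other lineages. Without a label to compare by, the questions for the 24 tumors were which transcripts took most of the counts, which kept the same level in every tumor, which differed most, which were present in some tumors and near 0 in the others, and which rose and fell together.

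Values are raw read counts per gene divided by the tumor's size factor (the median ratio of its counts to the average tumor), called normalized counts, and a level is log2 of the normalized count plus 1. Between 12288945 and 45148677 reads were counted on genes per tumor (median about 25569700), and 13515 to 17170 genes had at least 10 counts. TC538 stood apart. It had the fewest counts and the smallest size factor, 0.279 against 0.713 to 1.62 in the other tumors. The median correlation of its levels with those of the other tumors was 0.781, where it was 0.881 to 0.914 for the rest. A count of 0 allows up to 3 counts, which is 10.8 normalized counts in TC538 and 1.85 to 4.21 in the others. The main counts and some single values below are therefore given with and without TC538. Other values are given with it only, and some of them change without it. The cause of its position was not tested.

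The follicular markers were counted in all 24 tumors. *PAX8* ran from 1832 normalized counts in TC538 and 7535 in TC2402, the next lowest, through a median of 13776 to 31362 in TC1869, a level SD of 0.80 that fell to 0.55 without TC538. *TG* ran from 8188 normalized counts in TC1979 through a median of 602658 to 6595770 in TC1869, with a level SD of 2.61. So both markers were counted in all 24 tumors, and the SD was close to the median of all genes (0.870) for *PAX8* and above it for *TG*. Without TC538 the SD of *PAX8*, 0.55, lay below the median of all genes, which was then 0.771. The 3 lowest tumors for *TG*, TC1979, TC1241 and TC815 with 8188, 8833 and 11286, lay apart from the fourth lowest, TC2089 with 50633. *PAX8* in these 3 tumors was 16024, 15309 and 10023 normalized counts, within the range of the rest.

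A few genes took a large share of all counts. In each tumor the 10 most counted genes held between 15.6% (TC812) and 40.2% (TC1869) of the reads on genes, with a median of 21.3%. The first and the second, ENSCAFG00000022711 and ENSCAFG00000022709, have no symbol in the table and were among the 10 most counted in 24 of 24 tumors. ENSCAFG00000022711 took a median of 7.73% of the counts (4.14% to 15.6%) and ENSCAFG00000022709 a median of 7.29% (5.34% to 11.6%). Both shares were highest in TC538. *TG* followed, with a median of 2.11%, and spread the most of the named genes in this set. It took 16.7% of the counts in TC1869, 13.7% in TC627 and 12.3% in TC1994 but 0.0364% in TC1979, and it was the most counted gene of all in 4 tumors. Since long transcripts collect more reads and the files give no lengths, the order is one of counts and not of molecules.

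Outside the mitochondrial genome, the named genes after *TG* held under 0.3% of the counts each at the median. *LAMB1*, a laminin chain of basement membrane, had a median share of 0.251% (0.0969% to 0.764%). The translation elongation factors *EEF1A1* and *EEF2* had median shares of 0.247% and 0.174%. *CDH1*, the E-cadherin of epithelial junctions, had 0.233%, and *FN1*, the matrix protein fibronectin, 0.220%. *PSAP*, the precursor of lysosomal saposins, had 0.176%, *ACTB* (beta-actin) 0.173%, *FTH1* (ferritin heavy chain) 0.168% and *SPINT2*, a serine protease inhibitor of epithelia, 0.166%. Their level SDs were 0.57 to 0.90, apart from *FN1* with 1.20, against a median of 0.870 over all genes passing the filter. *FN1* ran from 12571 normalized counts in TC627 to 326642 in TC2089. *EEF2* was lowest in TC538, with 5603 normalized counts against 22278 in the next tumor. Its SD was 0.89 with TC538 and 0.65 without it.

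**Figure D1:**
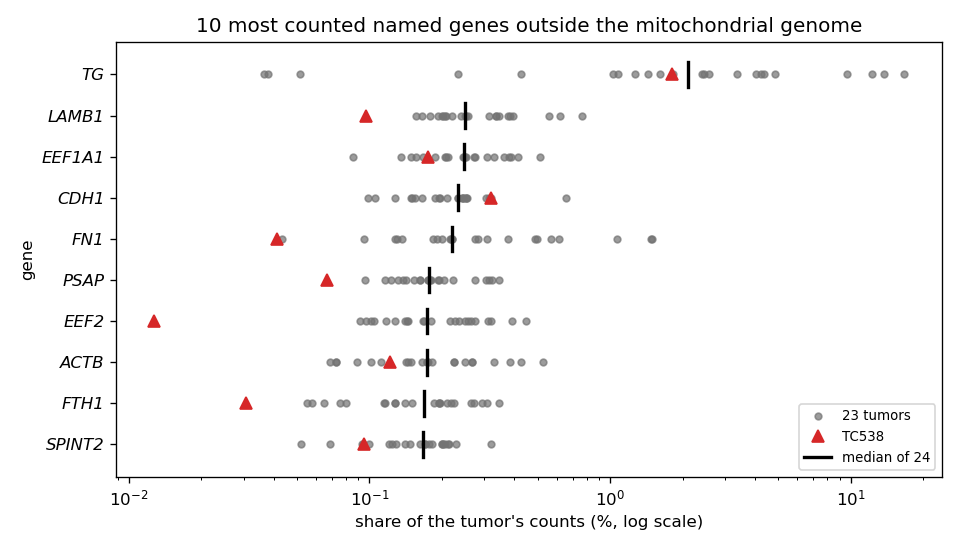
Share of each tumor's counts (%, log scale) taken by the 10 most counted named genes outside the mitochondrial genome. Gray points are 23 tumors, the red triangle is TC538 and the black bar the median of 24. *TG* runs from 0.0364% to 16.7%, while the other 9 genes lie under 2% in every tumor.

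The table names 13 genes of the mitochondrial genome, which encode proteins of oxidative phosphorylation. Those with a symbol starting with MT-, which are all but *ND4L*, together took between 1.17% (TC2402) and 5.77% (TC538) of the counts. TC1869 was next with 3.25%. *MT-CO1*, a cytochrome oxidase subunit, was the most counted of them, with a median share of 0.948%. *ND4L* and mitochondrial genes without a symbol are not in these shares. TC538 was the highest tumor for 12 of the 13 named genes, *ND4L* included. In *MT-ND3*, a subunit of complex I, it had 140068 normalized counts, where the other 23 tumors had 1254 to 8229. The level SD of *MT-ND3* was 1.38 with TC538 and 0.78 without it.

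Few genes were steady. A gene was called steady when its median normalized count was at least 100 and its level SD at most 0.25, and 16 of 11278 genes met this (0.142%). The steadiest was *SPTLC1*, a subunit of the enzyme that starts sphingolipid synthesis, with 963 to 1846 normalized counts (median 1168) and an SD of 0.22. The highest of these values was that of TC538, and the SD was 0.19 without it. *MBD2*, which binds methylated DNA, ran from 713 to 1238 (SD 0.22), and *UBR4*, a ubiquitin ligase with a very long transcript, from 7810 to 15706 (SD 0.23). *POGZ*, a zinc finger protein of heterochromatin, ran from 1358 to 2420, and *MSL1*, a scaffold of a histone acetyltransferase complex, from 1052 to 2049. Counting error alone would give these 5 genes an SD of 0.014 to 0.048, which is below the spread seen.

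The other steady genes named by their SD (0.24 to 0.25) were the RNA-binding gene *RBM12*, the histone chaperone *RBBP7*, the ribosomal RNA methyltransferase *DIMT1*, the splicing factor *SRSF1* and *C6H1orf52*. Without TC538 the count of steady genes rose to 30, of which 14 were also steady with it. *SRSF7*, a splicing factor like *SRSF1*, had 2542 normalized counts in TC538 and 1059 to 2007 in the others. Its SD went from 0.28 to 0.22 when that tumor was left out. Leaving out TC2110 lowered the count to 10, and leaving out any other single tumor gave between 11 and 20.

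Genes often used as references were less steady than these. Among the 11278 genes with a median of at least 100 normalized counts, *TBP*, the TATA-binding protein, had the smallest SD of the 13 housekeeping genes measured, 0.44, and ranked 1138. *SDHA*, a succinate dehydrogenase subunit, followed with 0.46. Without TC538 *TBP* had 0.39, and *HPRT1*, an enzyme of purine salvage, came second with 0.41 (0.60 with TC538), ahead of *SDHA* with 0.46. *ACTB* had an SD of 0.77 and ranked 6246, and *GAPDH*, an enzyme of glycolysis, had 0.89 and ranked 7758. *GAPDH* ran from 4492 normalized counts in TC538 and 5893 in TC627 to 42986 in TC1744. By SD, *TBP* lay at percentile 10.1 of the 11278 genes, *SDHA* at 11.3, *ACTB* at 55.4 and *GAPDH* at 68.8. The median SD of the 13 was 0.61, against 0.870 over all genes passing the filter, which also include genes of lower count. Thus 0 of the 13 were among the steady genes, with or without TC538. This is near the 0.142% over all genes (with TC538) for a list of this size.

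At the other end, 950 genes had a level SD of 2 or more (5.03%), out of the 18878 that reached 10 counts in 3 or more tumors, and 697 of them carried a symbol. Without TC538 there were 911, of which 877 were the same genes. Of the 950, 587 had at least 1 tumor with 0 counts and 241 had a median of at least 100 normalized counts, so the set held both rarely expressed genes and genes that most tumors expressed. The count depended on the weight given to low counts. With 8 in place of 1 added before the log, 312 genes reached an SD of 2.

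Of the 15 named genes of largest SD, *VSTM2A*, a secreted immunoglobulin-domain protein, came first with 4.52. It had 0 counts in TC1218 and TC2011, under 20 normalized counts in 8 tumors, a median of 808 and 11238 in TC1744. *SLC5A5*, the iodide transporter, had an SD of 4.12. It had 0 counts in TC812, 8.04 normalized counts in TC1241 and 141 in TC1953, a median of 7114, and 120307 in TC1869. The gene was thus at or near the limit of detection in some tumors and highly counted in others. The glial-derived neurotrophic factor receptor *GFRA1* had 0 counts in TC1869, where *SLC5A5* was highest, and was itself highest in TC1241 with 23490 normalized counts. Its median was 27.6.

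*CES5A*, a carboxylesterase, had an SD of 3.90 and one of the highest medians of these genes, 5451. It had 5.02 normalized counts in TC1241, 14.7 in TC815 and 150187 in TC2011. *NELL2*, a secreted neural growth factor-like protein, had a median of 1165 and ran from 5.61 in TC1994 to 21732 in TC2402. *NOS1*, the neuronal nitric oxide synthase, had a median of 13.0 and stood at 52518 in TC2011, with TC1979 next at 2769. *SPOCK1*, a matrix proteoglycan, ran from 0 counts in TC627 to 17813 in TC1241, and *TFAP2A*, a transcription factor of ectoderm and neural crest, from 0.895 in TC1953 to 2842 in TC1744.

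The phosphatase receptor *PTPRD*, the calpain relative *CAPN6*, the germ cell gene *TDRD1*, the cartilage lectin gene *CLEC3A*, the potassium channel partner *DPP6* and the junction protein *AJAP1* made up the rest, together with *ATP6V1B1*, described below. Their lowest values lay between 0 and 0.84 normalized counts and their highest between 2035 and 12785. For *TDRD1* the highest tumor was TC538 (4055 normalized counts), and its SD was 3.98 with this tumor and 3.77 without it. Of the 15 SDs, 0 fell below 3.7 without TC538.

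A gene was called two-level when the widest gap between neighboring levels, with at least 3 tumors on each side, was at least 2 (4-fold) and every tumor above it had at least 30 normalized counts. This held for 96 of 18878 genes (0.509%), 76 with a symbol, and 86 of the 96 were also among the variable genes. In 28 every tumor below the gap had under 10 normalized counts, although the depth of TC538 cannot tell a value under 10.8 from 0. In 68 genes the smaller side lay above the gap and in 28 it lay below. Without TC538, 98 genes were called, 89 of them the same. A gap of at least 3 left 28, and at least 5 tumors on each side left 35.

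The widest gap belonged to *ATP6V1B1*, a subunit of the proton pump that acidifies the lumen of kidney and inner ear epithelia. It had 3813 normalized counts in TC1994, 4142 in TC2288, 8825 in TC902 and 9265 in TC1744. The next tumor, TC2011, had 37.3, and the other 19 had 0 to 10.0. The gap was 6.64 on the level scale. The same 4 tumors lay above the gap of 1 other gene, ENSCAFG00000043794, which has no symbol in the table.

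The largest set of two-level genes with the same tumors above the gap was made of *HOX* genes, transcription factors that set position along the body axis. In TC1218, TC2011, TC22 and TC640 together, and in no other tumor, 9 genes of the A and B chromosomal clusters lay above the gap, among them *HOXB8*, *HOXA3*, *HOXA4*, *HOXA2*, *HOXA5*, *HOXB6*, *HOXB7* and *HOXB2*. *HOXB8* had 973, 1146, 1444 and 4468 normalized counts in TC640, TC1218, TC22 and TC2011, where the other 20 tumors had 0 to 37.0. *HOXA3* had 408 to 1067 in these 4 and 0 to 29.5 in the others, and *HOXA4* 114 to 256 against 0 to 8.22. The 2 groups of values did not overlap in any of the 9, which the two-level rule itself requires.

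The table held 32 genes named *HOXA* to *HOXD*, of which 20 passed the count filter, and their family was looked at after these values were seen. The same 4 tumors were the 4 highest in 14 of the 20, 5 of 8 *HOXA*, 8 of 8 *HOXB*, 1 of 2 *HOXC* and 0 of 2 *HOXD* genes. The 14 include the 9 two-level genes that picked out these tumors, for which this was fixed by the rule. The rest of the 14 were *HOXB3*, *HOXB4*, *HOXB5*, *HOXB9* and *HOXC4*. How often these tumors were the 4 highest over all genes was not counted. The *HOXB* genes that were not two-level were *HOXB3*, *HOXB4* and *HOXB5*, which the other tumors also expressed, and *HOXB9*, with 24.0 in TC640, was two-level with 3 tumors above. *HOXC4* had TC1593 above the gap as well, with 407 normalized counts. TC1593 was also the single tumor with high *HOXC12* (316 normalized counts, at most 3.58 elsewhere). *HOXA13* followed neither pattern, with levels of 8.62 in TC812, 7.49 in TC2089, the next tumor, and under 3 in the 4 tumors above. Members of this family are similar in sequence and lie close together, and the strand setting of the counting is not stated, so reads of overlapping antisense genes cannot be told apart.

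**Figure D2:**
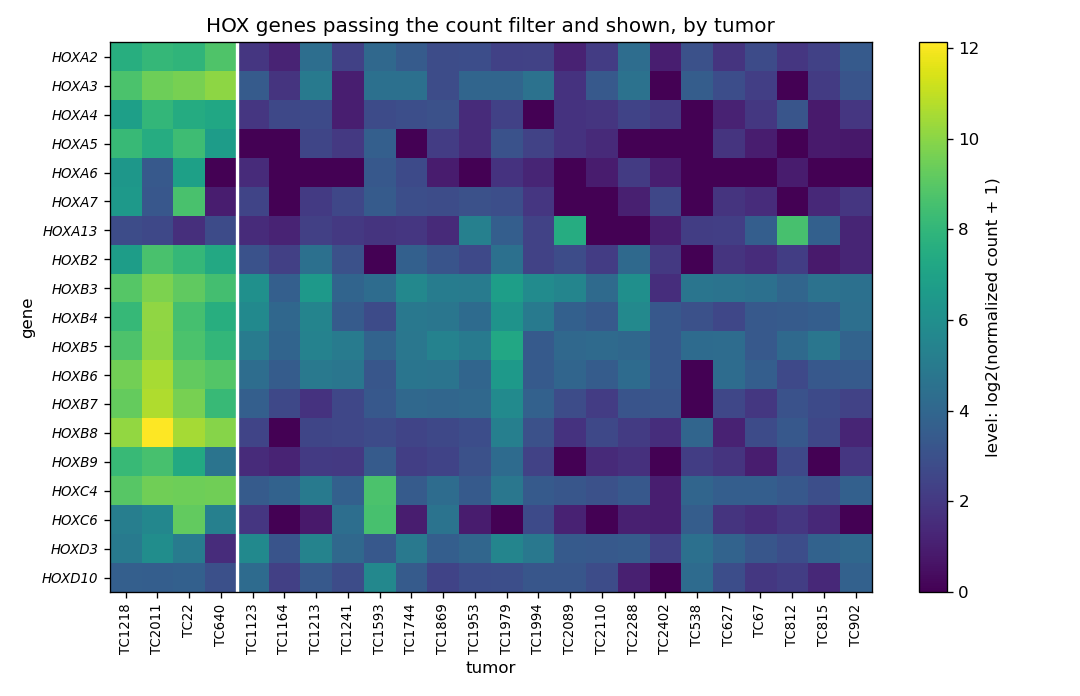
Level (color, log2 of the normalized count plus 1) of 19 of the 20 *HOX* genes passing the count filter (rows, ordered by cluster) in the 24 tumors (columns). TC1218, TC2011, TC22 and TC640 are placed left of the white line, and are the 4 highest tumors in 13 of the 19 genes shown. For the two-level genes that picked out these tumors this was fixed by the rule.

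Other transcription factors were two-level in other tumors. *LHX1*, a regulator of kidney development, had 297, 446 and 835 normalized counts in TC627, TC1123 and TC1164 and at most 15.3 in the remaining 21. *MSX2*, a homeobox gene of limb and skull, had 101 to 279 in TC812, TC1979, TC640 and TC1241 and at most 10.7 elsewhere. *ADGB* (androglobin, a globin of ciliated and germ cells) had 287, 396 and 403 in TC640, TC22 and TC1218, which are 3 of the 4 *HOX*-high tumors, and at most 25.1 in the others. In the fourth of them, TC2011, it had 0 counts.

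Both sides were large for some genes. *RPS6KA6*, a ribosomal S6 kinase, had 63.7 to 656 normalized counts in 16 tumors and 0 to 4.21 in TC1164, TC1241, TC1953, TC1994, TC2011, TC627, TC812 and TC902. *IGF2BP2*, an RNA-binding protein of fetal tissues, also split 16 from 8, with 338 to 3094 against 3.75 to 34.8, but the 8 low tumors were partly others. TC1241, TC2011 and TC627 were low for both. *TDRD1* split 8 high tumors (585 to 4055) from 16 low ones (at most 61.8).

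The remaining two-level genes of the 15 widest gaps were *CCDC172* (5 tumors above), *NAA11* (4) and *SLITRK5* (3). *NAA11* is an acetyltransferase of testis and *SLITRK5* a synaptic membrane protein. Among the genes with the smaller side below the gap, *SVEP1*, *LUM* and *DCN*, proteins of connective tissue matrix, shared the 4 low tumors TC1218, TC1241, TC640 and TC812.

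**Figure D3:**
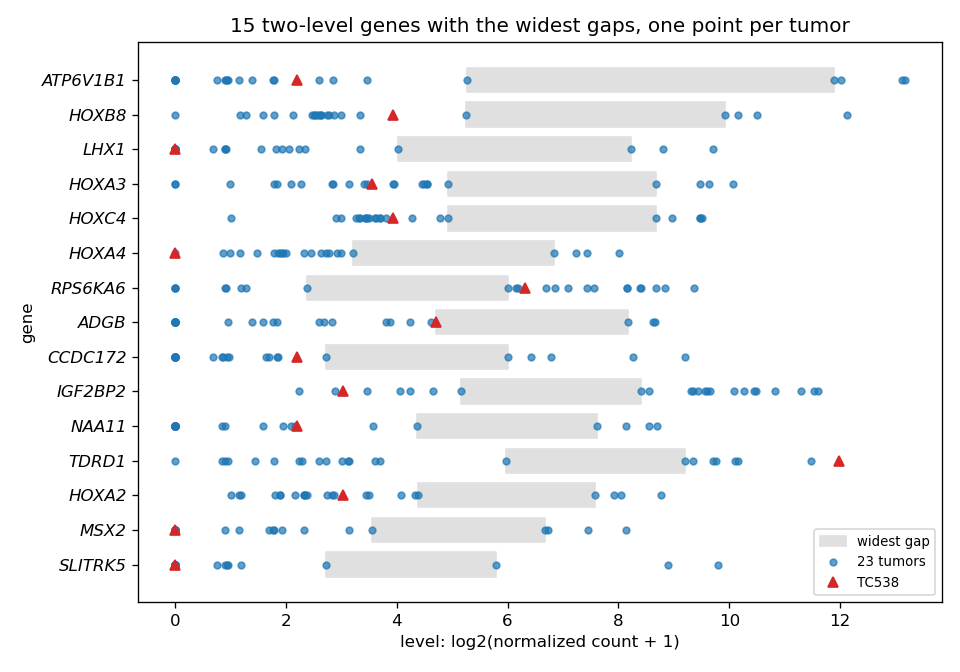
Level (log2 of the normalized count plus 1) of the 15 named two-level genes with the widest gaps, 1 point per tumor. Blue points are 23 tumors, the red triangle is TC538 and the gray bar the widest gap, from 6.64 in *ATP6V1B1* to 3.08 in *SLITRK5*.

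Some genes stood out in 1 tumor alone. A gene was called when its highest level lay at least 3 (8-fold) above the second highest with at least 100 normalized counts, or its lowest at least 3 below a second lowest of at least 100. Of 20731 genes, 283 met this (1.37%), 200 high and 83 low. TC538 accounted for 86 of the high and 68 of the low genes. Without it 120 were high and 19 low in 1 of the 23 tumors. Next to TC538, TC1241 had 29 high and 6 low genes and TC640 had 18 high genes.

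The widest gap was that of *PTH*, parathyroid hormone, with 28525 normalized counts in TC2288 and 14.8 or less in the other 23 tumors. *GCG*, the precursor of glucagon, was also high in TC2288 alone, with 272 normalized counts against at most 2.02. Of the 6 parathyroid genes in the table, TC2288 was the highest tumor for 4. They are *PTH*, *GCM2* (a transcription factor of the parathyroid), *CASR* (the calcium-sensing receptor, 665 normalized counts, with TC1979 next at 472) and *GATA3*. The level of *GCM2* was 7.65 in TC2288. The part of parathyroid tissue in these values was not tested.

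The second widest gap was on the low side. *FKBP9*, an endoplasmic reticulum foldase, had 1 count in TC1979, a normalized count of 0.805, where the other tumors had 1491 to 8037. *NT5C3A*, a nucleotidase, had 0 counts in the same tumor and 130 to 1685 normalized counts elsewhere. These genes are neighbors in the order of the UU_Cfam_GSD_1.0 assembly, which is not the build of the counts. The genes on either side were expressed in TC1979. *KBTBD2*, next to *FKBP9*, had a level of 9.55 there (9.33 to 11.95 in the others), and *AVL9*, one further out, 9.58 (9.75 to 12.02). *RP9*, next to *NT5C3A*, had 6.86 (5.71 to 7.17), and *BBS9*, after it, 8.52 (8.82 to 13.39). So *AVL9* and *BBS9* were lowest in TC1979 by less than 0.4, and *RP9* and *KBTBD2* lay inside the range of the other tumors. The difference of TC1979 from the median of the others was -0.87 for *KBTBD2*, -0.79 for *AVL9*, -1.01 for *BBS9* and 0.14 for *RP9*. Among genes within 3 places of each other, no other pair was low in 1 tumor except in TC538, for *CAVIN3* with *TRIM3* and *SURF2* with *REXO4*.

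**Figure D4:**
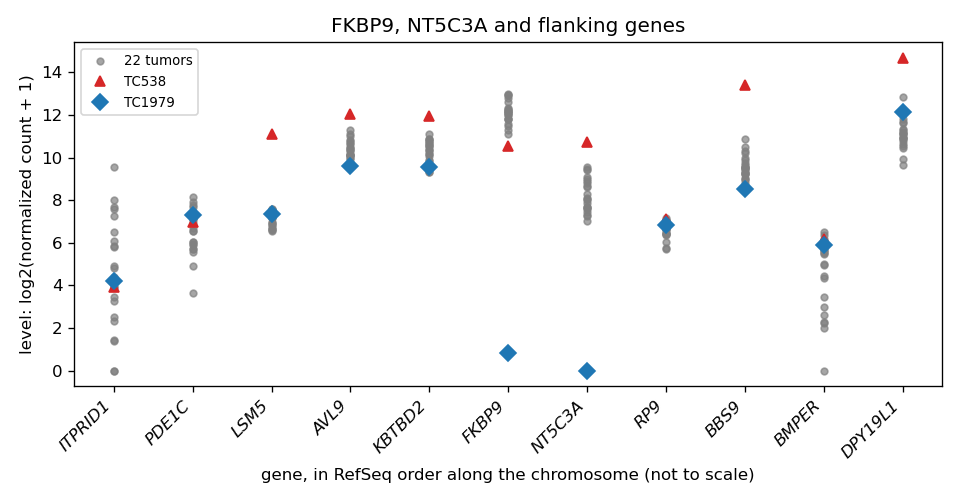
Level (log2 of the normalized count plus 1) of *FKBP9*, *NT5C3A* and flanking genes passing the count filter, in their RefSeq order and not to scale. Blue diamonds are TC1979, red triangles TC538 and gray points the other 22 tumors. TC1979 lies at 0.85 for *FKBP9* and at 0 for *NT5C3A*. For the flanking genes it lies within the range of the other tumors, or just below it for *AVL9* and *BBS9*.

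TC1241, the tumor with the second lowest *TG*, was the single high tumor for 29 genes. *SLC1A2*, a glutamate transporter of glia, had 3488 normalized counts there and at most 39.4 elsewhere. *PROX1*, a transcription factor of lymphatic vessels and endocrine cells, had 7624 against at most 171. *EDN3*, an endothelin, had 1078 against at most 21.8, *EREG*, a ligand of the epidermal growth factor receptor, 658 against at most 14.3, and *CNTNAP2*, a neural adhesion protein, 2907 against at most 69.7. The 6 genes lowest in TC1241 alone were *FAM83F*, *TMC5*, *ABCA13*, *CLDN7*, *CA12* and *ANK3*, among them a claudin of epithelial junctions (*CLDN7*). *CDH1* was lowest in TC1241 too, with 22886 normalized counts against a median of 54294, but TC1123 was close to it with 25293.

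Single genes marked other tumors. *MYO3B*, a myosin of sensory cells, had 1792 normalized counts in TC812 and at most 21.5 elsewhere. *SST*, somatostatin, had 975 in TC1593 and at most 18.2. *KLK1*, tissue kallikrein, had 1905 in TC1744, followed by 54.2 in TC1869. In TC538 the drug transporter family member *ABCB5* had 1233 and the neural adhesion gene *CNTN5* 430, with at most 2.81 in any other tumor for either. *SHFL*, an interferon-induced gene, had 0 counts in TC538 and 115 to 366 normalized counts in the rest. The single-tumor genes *SST*, *EDN3*, *PROX1*, *EREG*, *CNTNAP2* and *KLK1* were named from the 23 tumors without TC538, after that tumor was seen to hold many of the calls.

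Most pairs of variable genes were weakly correlated. Over the 450775 pairs of the 950 variable genes, the median Spearman rho across the 24 tumors was 0.0226, and 0.233% of the pairs reached 0.7. Only 0.0756% were at -0.7 or lower. Average linkage at a rho of 0.5 gave 252 clusters, of which 42 were single genes and 13 had at least 10 genes. The members were joined because they were alike, so the values below describe the clusters and test nothing.

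The largest cluster had 26 genes and a median rho of 0.72 between members (0.73 without TC538). It was led by *SVEP1*, *LAMA2*, *TMEM119*, *DCN*, *THBS2* and *MFAP4*, and also held *LUM*, *FAP*, *SFRP2*, *FBLN1*, *DPT* and *MFAP5*. The mean difference of its genes from their own median level was -4.23 in TC1241, -3.98 in TC640, -3.96 in TC1218 and -3.76 in TC812, and the next lowest tumor was TC1164 at -2.41. *DCN*, the proteoglycan decorin, had 0 to 8.22 normalized counts in these 4 tumors, a median of 445 and 2840 in TC1953. The highest tumor was TC2089, at 2.29. Of the 26 genes, 24 fell into 1 cluster again without TC538.

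The *HOX* genes formed a cluster of 15 genes with a median rho of 0.57. Its leading genes included *HOXB9*, *HOXA3*, *HOXC4*, *HOXA2* and *HOXA5*, and *NOS1* was the one member with a symbol outside the family. The mean difference from the median level was 6.37 in TC2011, 5.58 in TC22, 5.18 in TC1218 and 5.06 in TC640. It was 2.11 in TC1593 and 1.55 in TC1979, and below 0.7 in the other 18. TC1593 and TC1979 were the tumors after TC2011 for *NOS1*, with 2364 and 2769 normalized counts. TC1218 and TC640 thus lay at the low end of the *SVEP1* cluster and at the high end of this one, while TC22 and TC2011 lay at 0.15 and 0.81 in the *SVEP1* cluster. The median rho between members of both clusters was -0.0127.

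The second, the third and the fourth cluster lay close to each other, with a median rho of 0.39 to 0.45 between their members. The second cluster (17 genes, median rho 0.62) was led by *NPY5R*, a receptor of neuropeptide Y, *PPP2R2C*, *CDH6*, *AJAP1*, *ELFN2* and *CSMD1*. Its mean difference was highest in TC1241 (4.84), TC1979 (3.81) and TC1164 (3.52). The third (17 genes, median rho 0.65) was led by *ST6GAL2*, *UNC80*, *GFRA2*, *UNC5D*, *GRID1* and *THSD7B*, and *CDH2*, the N-cadherin of neural and mesenchymal cells, was also a member. It was highest in TC1979 (3.24), TC1164 (3.21) and TC67 (3.14), but TC1241 was at -0.19. The fourth (15 genes, median rho 0.62) had among its leading genes *PCSK1N*, an inhibitor of prohormone convertase, *PTPN5*, *ELOVL2*, *HTR4* and *ADAMTS17*, and was highest in TC1241 (3.49). In TC1123, TC1164, TC1213, TC1979, TC67 and TC815 all 3 clusters lay 1.99 or more above their medians.

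The sixth cluster (14 genes, median rho 0.56) was led by *FCAMR* and *PIGR*, receptors that bind or carry immunoglobulins, *FOXJ1*, the transcription factor of motile cilia, *KCNJ15*, *EHF* and *FRMPD3*. *PIGR* ran from 9.14 normalized counts in TC812 through a median of 1399 to 58466 in TC2011. The cluster was highest in TC538 (4.39) and TC2288 (4.11). Without TC538 7 of its 14 genes stayed together, the smallest share of the 6 clusters.

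**Figure D5:**
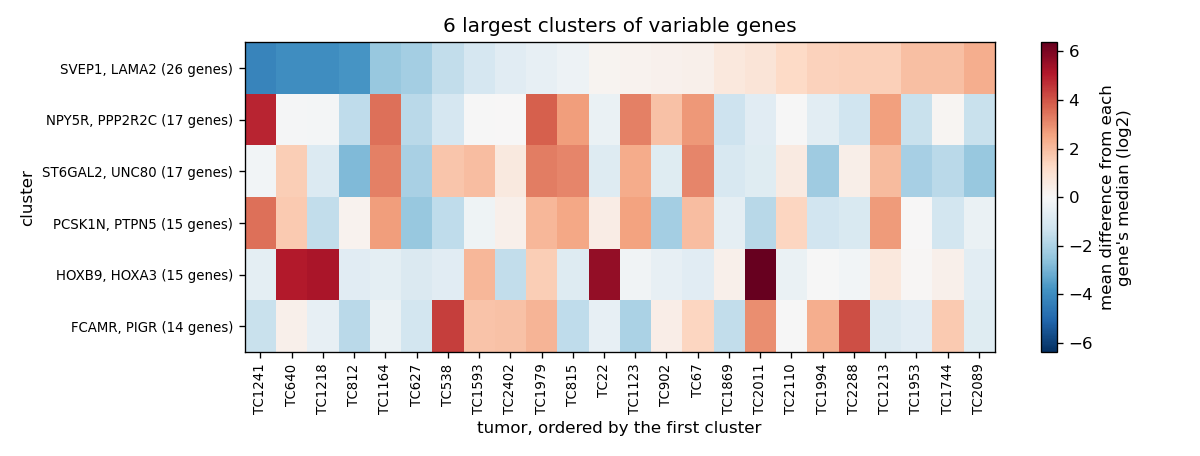
Mean difference of each cluster's genes from their own median level (color, log2) in each tumor, for the 6 largest clusters of variable genes. Columns are tumors, ordered by the first cluster. TC1241, TC640, TC1218 and TC812 lie between -4.23 and -3.76 in the *SVEP1* cluster, and TC2011, TC22, TC1218 and TC640 lie between 5.06 and 6.37 in the *HOX* cluster.

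Lists of genes for cell types and processes were counted in the same way. Counts of list genes that were highest in 1 tumor, here and above, are given without the share of all genes highest there. They therefore do not show whether a tumor was highest more often in a list than in other genes. Of 26 lists, 9 held at least 1 variable gene, 16 held none, and in the list of red blood cells only *ALAS2* passed the filter. Of the 20 genes for thyroid hormone synthesis, 4 were variable, among them *SLC5A5*, *SLC5A8* and *TG*, where 5.03% of all genes were. Their median level SD was 1.23, against 0.870 over all genes. *SLC5A8*, an apical transporter, ran from 0 counts in TC1241 to 1735 normalized counts in TC1869. The genes *HHEX* (SD 0.53), *PAX8* (0.80), *IYD*, which recovers iodide (0.89), and *TSHR*, the thyrotropin receptor (0.92), varied less. TC1869 was the highest tumor for 8 of the 20 genes.

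Of 18 fibroblast and matrix genes 4 were variable (*DCN*, *LUM*, *FAP* and *THBS2*), where 5.03% of all genes were. The median SD of the 18 was 1.26, and the median rho between them 0.53, where it was -0.00174 over all gene pairs. TC2089 was the highest tumor for 11 of the 18. Of 14 endothelial genes 0 were variable, near the 5.03% over all genes for a list of this size, and their median rho was 0.67. TC538 had the lowest values of *CLDN5*, *PLVAP* and *TIE1*, the 3 with the largest SD, and without it their SDs fell from 1.60, 1.41 and 1.28 to 1.09, 1.11 and 0.99. The 9 smooth muscle and pericyte genes had a median rho of 0.65, and their largest SD was that of *DES*, 1.35.

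The immune lists held 0 or 1 variable gene each, near the 5.03% over all genes for lists of their size. The mean level of 21 T and NK cell genes ran from 2.94 in TC1869 to 5.57 in TC815, which was the highest tumor for 13 of the 22 in the table. *CTLA4* and *ICOS*, receptors on activated T cells, had 38.3 and 53.0 normalized counts in TC815 and medians of 3.85 and 4.97. *CD4* instead was highest in TC1994, with 2315 against 319 in the next tumor, TC1744. Of 16 macrophage genes 1 was variable (*MARCO*, a scavenger receptor), and TC1994 was the highest tumor for 8, among them *GPNMB* with 29117 normalized counts against 6202 in the next tumor. The collagenase *MMP9*, in the neutrophil list, was at 1005 in TC1994 and at most 110 elsewhere. The 12 B and plasma cell genes held 0 variable members, and *BLK*, *POU2AF1* and *IRF4* had the largest SDs (1.66, 1.60 and 1.27). *POU2AF1* had 735 normalized counts in TC1979 and at most 88.9 elsewhere.

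The 5 mast cell genes held 0 variable members, and *KIT*, *CPA3* and *MS4A2* had the largest SDs (1.83, 1.57 and 1.44). TC538 was the highest tumor for each of these. *KIT* was also two-level, with a gap of 2.53. It had levels of at most 7.78 in TC1744, TC1994, TC627 and TC902 and of 10.31 or more in the other 20 tumors. *KIT*, a receptor of mast cells and other cells, had a median of 2830 normalized counts, and *CPA3*, a protease of mast cell granules, a median under 3, so the 2 were far apart in count. The 5 genes of antigen presentation kept together (median rho 0.65), and *DLA-DQA1*, a class II chain, ran from 406 in TC1869 to 5125 in TC1994. The 13 interferon response genes had a median rho of 0.38, and *ISG15* ran from 16.4 in TC1123 to 709 in TC812.

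Of 17 skeletal muscle genes, 13 passed the filter and 4 were variable (*MYH2*, *TTN*, *MYH1* and *ACTA1*), against 5.03% of all genes. TC2089 was the highest tumor for 12 of the 17, with 1027 normalized counts of the fast myosin *MYH2* and 289 of *MYH1*, whose medians were 0.968 and 3.74. *MYH2* was also high in TC2402, with 553, and at most 35.7 in the other 22 tumors. Myosin heavy chain genes are similar in sequence, so the value of each is uncertain. *TTN*, the giant sarcomere protein titin, did not follow them. It had a median of 10304 normalized counts and was highest in TC627 (149622), TC640 (78018) and TC1164 (73104) and lowest in TC812 (140). TC1164 had 0 counts of *MYH2* and of *MYH1*. Of the 7 fat cell genes, *LEP*, *PLIN1* and *CIDEA* had the largest SDs, and *PLIN1* was highest in TC2089, with 162.

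Among the 10 C cell genes in the table, 8 passed the filter and 4 were variable (*CALCA*, *SYP*, *CALCB* and *SCG2*), against 5.03% of all genes. *CALCA*, which encodes calcitonin, had 0 counts in TC1241 and TC902, a median of 100.2 normalized counts, 3925 in TC812 and 7657 in TC22. *CALCB* had 403 in TC22 and 73.3 in TC1213, the next tumor. TC22 was the highest tumor for 7 of the 10 genes, and its mean level of the 8 was 8.35, which was 1.65 above the next. Reads could be split between *CALCA* and *CALCB*, which are similar in sequence. The part of C cells in these values was not tested.

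Genes of bone were spread over several tumors, with 4 of 10 variable (*IBSP*, *ACP5*, *ALPL* and *PHEX*), against 5.03% of all genes. *IBSP*, bone sialoprotein, had 448 normalized counts in TC1994, 30.5 in TC902 and a median of 0. *ACP5*, the acid phosphatase of osteoclasts and macrophages, had 28016 in TC1744, 10288 in TC1994 and a median of 1085. Of 6 cilia genes 2 were variable (*FOXJ1* and *DNAI2*), with TC902 highest for *FOXJ1* (513) and TC1744 for *DNAI2* (922). *KRT14*, a keratin of basal and squamous cells, was the variable gene among 4 keratin and squamous genes, with 0 counts in TC1241 and 1425 normalized counts in TC1744. The cilia and keratin lists are too short to set against the 5.03% over all genes.

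The lists for the cell cycle, ribosomal proteins, immediate early genes, hypoxia and heat shock held 0 variable genes each, near the 5.03% over all genes for lists of 7 to 22. The 22 cell cycle genes had a median SD of 0.73 and a median rho of 0.40, and *MKI67*, a marker of dividing cells, ran from 168 normalized counts in TC538 and 274 in TC627 through a median of 524 to 1914 in TC1979. *MCM2*, *CDC20* and *CENPF* had the largest SDs (1.26, 1.13 and 1.09), the first falling to 1.11 and the second to 0.90 without TC538. The 17 ribosomal protein genes had a median SD of 0.59 and a median rho of 0.50, and TC538 was lowest for *RPL8* and *RPL13*, with 1240 and 441 normalized counts. Of 16 immediate early genes, which respond to stimuli within minutes, *EGR3*, *EGR1* and *FOSB* had the largest SDs (1.78, 1.44 and 1.42), and *EGR3* was at 493 in TC1241 against 74.0 in the next tumor. The 13 hypoxia genes (median rho 0.08) and the 7 heat shock genes (median rho -0.10) had a median rho near 0, and *EGLN3*, an oxygen-sensing hydroxylase, and *BAG3*, a partner of heat shock proteins, had their largest SDs (1.68 and 1.05).

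16 pairs of genes with different roles were tested for correlation across tumors (two-sided permutation test, 100000 permutations, Benjamini-Hochberg adjusted over the 16). Over all 24 tumors 1 of the 7 pairs with *TG* passed by Spearman's rho and 0 by Pearson's r. Since the levels of *TG* fell into 2 clusters, these 7 are given over the 21 tumors above the gap only, adjusted over the 7, a restriction chosen after seeing the data. Within them 0 pairs passed by either measure, and an unadjusted p under 0.05 was reached by 2 pairs by r and 1 by rho. They included *TG* with *TSHR* (r = 0.47, adjusted permutation p = 0.158, rho = 0.38, adjusted permutation p = 0.307). Without the 2 tumors farthest from the median of *TG*, TC2089 and TC1869, r of this pair fell to 0.27. For *TG* with *PAX8*, *MKI67*, *COL1A1*, *PTPRC* and *PECAM1*, r was between -0.21 and 0.18.

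Of the 9 pairs without *TG*, 5 passed by rho and 0 by r, and the 16 pairs held 6 with an unadjusted p under 0.05 by r. Of these 5, 4 are given here. *CSF1R*, a macrophage receptor, and *COL1A1*, a collagen chain, had a rho of 0.60 (adjusted permutation p = 0.0279) and an r of 0.51 (adjusted permutation p = 0.0547), and r was 0.58 without TC1979 and TC1123. *COL1A1* and *ACTA2*, the actin of smooth muscle and activated fibroblasts, had a rho of 0.53 (adjusted permutation p = 0.0306) and an r of 0.52 (adjusted permutation p = 0.0547), and r was 0.58 without TC1241 and TC1218.

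The last 2 passed by rho with all 24 tumors but not without 2 of them. *COL1A1* and *MKI67* had a rho of 0.54 and *FOS* and *EGR1*, both immediate early genes, a rho of 0.54 (adjusted permutation p = 0.0279 for each), with an r of 0.47 and 0.51 (adjusted permutation p = 0.0792 and 0.0547). Without TC1241 and TC1218 for the first, and TC1979 and TC1953 for the second, their r was 0.45 and 0.41, and their rho did not pass (adjusted permutation p = 0.0692 and 0.0958). The other 4 pairs did not pass by either measure. *PTPRC*, on all leukocytes, had an r of 0.37 with *CD3E* of T cells (rho = 0.32) and of -0.24 with *CSF1R* (rho = -0.22). *CD3E* and *MS4A1* of B cells had an r of 0.42 (rho = 0.17), which was 0.09 without TC815 and TC2089. *VEGFA* and *CA9*, both responsive to low oxygen, had an r of -0.26 (rho = -0.20).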

How the data were processed

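RNA was measured in 30 canine thyroid carcinomas, and the 24 tumors described were taken by name. The authors used a total RNA kit with ribosomal depletion and paired-end sequencing, aligned with STAR against CanFam3.1, and deposited raw read counts per Ensembl gene (30424 genes, 15780 with a symbol, 17 symbols given to more than 1 gene). The strand setting of the counting is not given in the sources used here. Columns that belong to no tumor numbered 0, and 0 pairs of tumors were identical.

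Size factors were medians of ratios over 15611 genes that every one of the 30 tumors expressed. Genes entered with at least 10 counts in at least 3 of the 24 tumors, or in 1 for single-tumor calls. Spearman's rho, average linkage and permutation tests ran in scipy 1.17.1 (numpy 2.4.6, pandas 2.3.3, Python 3.11.15), figures came from matplotlib 3.10.9, and TMM factors from edgeR 4.0.16 in R 4.3.3. The measures were run on simulated counts with known changes. The planted steps were larger than the gaps used for the calls, so calls near those gaps were not tested. Counting floors cover counting error only, since reads were not counted by molecular identifiers. With 1 tumor per dog, the spread is that between tumors, and its batch part is unknown because the labels give none. Gene order came from 15340 symbols of the UU_Cfam_GSD_1.0 assembly, without coordinates. No sequences are shown.

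The members, lists, pairs and rules were chosen with earlier results of these data known. Named genes are the first 10 or 15 of each ranking by share, SD or gap, the 6 leading genes of each of the 6 largest clusters, the genes of the 16 pairs and the 3 members of largest SD of each list. Others were named after their values were seen. The alternatives tried were other size factors, TMM, a pseudocount of 8, other filters and gaps, the median absolute deviation, Pearson's r and leaving out TC538. Leaving out each tumor in turn and the *TG* pairs within 21 tumors were added after seeing the data. Results of some genes are not reported here.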

Additional observations from a re-analysis of the deposited data

How the results depend on the processing

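Leaving out TC538 raised the number of steady genes from 16 to 30 and lowered that of single-tumor genes from 283 to 139. A pseudocount of 8 lowered the number of variable genes from 950 to 312, since it shrinks differences at low counts. Stricter rules lowered the two-level genes from 96 to 28 (a gap of 3) and 35 (at least 5 tumors on each side), and the single-tumor genes to 82 (a gap of 4). By Pearson's r, 0 of the 16 pairs passed after adjustment (6 at an unadjusted permutation p under 0.05, and 6 by Spearman's rho after adjustment). With TMM scaling 3 passed, with a pseudocount of 8 it was 4, and without the 2 tumors farthest from the median of the first gene it was also 4; the cause was not tested. The correlation of *TG* and *PTPRC* changed sign in that last setting, to an r of -0.13, and neither value passed. The other counts stayed within 1.5 times the reported one under the remaining alternatives, and the share of counts in the 10 most counted genes moved by less than the spread between tumors. Leaving out TC2110 took the steady genes to 10; leaving out any other tumor but TC538 moved the 4 counts of steady, variable, two-level and single-tumor genes by less than 1.5 times. No paired analysis was possible because all tumors form 1 group. Depth limits calls near 0 in TC538, where a count of 0 allows 10.8 normalized counts.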

Other observations

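Beside the 6 largest clusters, 7 more had 10 to 12 variable genes, and their genes were named after their values were seen. One of 12 genes, led by *CDO1*, *CHMP4C* and *JPH1* with *MSX2* as a member, lay 3.91 above its median level in TC812, 3.74 in TC1953 and 3.63 in TC2089. One of 11 genes held the epithelial sodium channel subunit *SCNN1A*, *SLC5A8* and *TFAP2A*. Its mean difference was 3.30 in TC1869 and 3.29 in TC1744, and -3.54 in TC812 and -3.18 in TC1241, the tumors with the least *SLC5A5*. One of 11 genes with 3 symbols, *TMEM100*, *OOEP* and *KHDC3L*, the last 2 known from oocytes, lay 3.99 above in TC1218, 3.62 in TC815 and 3.21 in TC22.

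Genes within 3 places of each other were high together in single tumors in a few places, apart from other such pairs in TC538. In TC1593 these were *HOXC12* and *HOXC13*, in TC1744 *KLK1* and *KLK4*, in TC1241 *EDN3* and *ZNF831*, in TC2288 *GCM2* and *SYCP2L*, and in TC2089 *MYH3* and *MYH4*. In TC640 the single high genes included the complement genes *C5* and *C4BPA*. *MEST*, an imprinted gene, was the 1 gene lowest in TC67 alone.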
